A study of Mus musculus with 6 samples.

Results

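A set of 10 genes of the LIF-STAT3 pathway was followed in murine embryonic stem cells (ESCs) after knockdown of cohesin or condensin subunits. The members were the ligand Lif, the receptor chains Lifr and Il6st, the kinase Jak1, the transcription factor Stat3, and the STAT3-responsive genes Socs3, Pim1, Pim3, Junb and Gbx2. Each member was the RefSeq row that maps to its gene symbol, and where a gene had several rows the row with the most counts over the 6 libraries was used. They are 10 of the 21088 genes in the files, and all 10 passed the filter on low counts that left 14615 genes to test.

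The cells were V6.5, a C57BL/6-129 hybrid ESC line, infected with lentiviral shRNA and selected with puromycin at 0.5 µg/ml and then 1 µg/ml for 48 hours each by the labels, while the study's methods give a different, single concentration. A hairpin against GFP served as the control, 1 hairpin targeted the cohesin subunit SMC1, and 2 different hairpins each targeted CAPH2, a subunit of condensin II, and SMC2, an ATPase shared by both condensins. Each hairpin was sequenced as 1 library, so there were 6 libraries, and GFP and SMC1 had no replicate. The hairpins of a target are called #1 and #2 after the replicate numbers of the labels. The comparison asks how loss of these chromosome-structuring complexes changed the RNA of a signalling pathway that ESCs depend on. All groups were grown on irradiated fibroblast feeders and then passed once onto gelatin, and by the study's methods the culture medium of this line contained added LIF, so the pathway was supplied with ligand in every group.

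LIF is a cytokine of the interleukin-6 family that is widely used to keep mouse ESCs undifferentiated in culture. It binds a receptor made of the LIFR and gp130 (Il6st) chains, which activates JAK kinases bound to them. The kinases phosphorylate STAT3, which then enters the nucleus and switches on target genes, among them Socs3, whose protein binds gp130 and JAKs and damps the signal. Phosphorylation was not measured in these libraries, which report RNA only.

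The promoters of Socs3, Pim3 and Gbx2 are shown because these are the STAT3-responsive members that passed a test in the results that follow. Each sequence is RefSeq, build GRCm38.p6, read 5′ to 3′ on the gene's strand from 250 bases before the start of transcription to 50 bases after it. Capitals mark matches to TTCNNNGAA, the palindromic core to which STAT proteins bind, which reads the same on both strands.
Socs3 (chr11:117969317-117969616, minus strand): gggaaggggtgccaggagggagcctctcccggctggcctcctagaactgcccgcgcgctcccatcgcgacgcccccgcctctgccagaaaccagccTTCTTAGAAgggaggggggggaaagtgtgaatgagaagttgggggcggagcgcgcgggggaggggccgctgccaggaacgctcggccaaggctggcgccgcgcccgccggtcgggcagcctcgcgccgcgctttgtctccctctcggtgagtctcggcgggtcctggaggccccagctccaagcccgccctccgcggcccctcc
Pim3 (chr15:88861944-88862243, plus strand): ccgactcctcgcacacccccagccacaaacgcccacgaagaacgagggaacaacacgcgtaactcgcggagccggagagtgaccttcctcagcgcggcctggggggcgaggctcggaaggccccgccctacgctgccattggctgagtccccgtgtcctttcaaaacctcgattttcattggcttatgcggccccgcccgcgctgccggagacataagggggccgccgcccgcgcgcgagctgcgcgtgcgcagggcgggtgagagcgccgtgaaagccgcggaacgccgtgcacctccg
Gbx2 (chr1:89931127-89931426, minus strand): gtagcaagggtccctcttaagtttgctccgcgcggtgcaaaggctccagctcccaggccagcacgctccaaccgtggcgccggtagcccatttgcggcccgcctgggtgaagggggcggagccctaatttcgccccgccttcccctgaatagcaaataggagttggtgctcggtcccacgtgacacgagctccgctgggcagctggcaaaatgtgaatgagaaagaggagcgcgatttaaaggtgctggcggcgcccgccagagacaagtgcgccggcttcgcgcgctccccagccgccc
The Socs3 promoter held 1 match, TTCTTAGAA, which began 154 bases before the start. It was the only match in the 12 promoters listed for the 10 members, among which Lifr and Pim1 have 2 each. Over all 32851 promoters of this length, 2726 (8.30%) held the motif. A match describes letters in this window and is not evidence of binding.

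Positions of the members' RefSeq rows are given from here on in build mm9, which the files use. The libraries held between 25467427 and 31337313 counts. Smc1a RNA in the SMC1 library was 39.9% of its level in GFP, Ncaph2, which encodes CAPH2, was 21.0% and 34.8% of GFP with its hairpins, and Smc2 was 70.7% and 71.9% of GFP with its own. The SMC1 library stood apart from the rest. It lay outside the range of the other 5 libraries for 71.8% of the 12190 genes whose RPKM (read counts scaled to exon length and library size) was at least 1 in GFP. The summed RPKM of 7 pluripotency markers was 2052 there, against 3529 in GFP and between 2959 and 3129 in the condensin libraries. The ERCC spike-in RNAs, added per cell number, took 499195 counts in GFP, 244880 in SMC1 and between 319478 and 451105 in the condensin libraries. Scaling to them in place of the total raised the median log2 change of all genes by 0.86 for SMC1 against GFP, so every change given here is relative to the other genes of the library unless ERCC scaling is named.

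Lif (NM_008501, chr11:4157571-4172517, plus strand) was the least expressed member. Its RPKM was 2.41 in GFP, 4.09 in SMC1, 3.79 and 2.51 in CAPH2 #1 and #2, and 2.80 and 2.465 in SMC2 #1 and #2, from between 190 and 355 counts. The SMC1 library was the highest and GFP the lowest, but CAPH2 #1 lay close to SMC1 while the other 3 condensin libraries lay near GFP. Lif in SMC1 was 170.0% of GFP (95% exact binomial interval 142.3 to 203.6, which here and throughout covers counting error only). Against the 4 condensin libraries the log2 difference was 0.47 (SE 0.19), which did not pass the test (edgeR quasi-likelihood test, adjusted p = 0.0757). Without CAPH2 #1 the log2 difference was 0.65, and without CAPH2 #2 it was 0.36. Each of these fits leaves 1 CAPH2 library, so the gap between the CAPH2 hairpins no longer enters the error. Neither fit can therefore show that Lif passes.

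The summed fibroblast markers were also highest in SMC1 and CAPH2 #1. Their RPKM over 8 genes was 45.2 in GFP, 91.5 in SMC1, 71.7 and 49.2 in CAPH2, and 55.2 and 49.5 in SMC2. All 8 were higher in SMC1 than in GFP, among them Col1a1, a fibrillar collagen, at 39.4 against 20.8 RPKM, while the proteoglycan Lum was listed at 0 in both CAPH2 libraries. Most of the sum was Col1a1 and Col1a2, and Thy1 ran the other way in the condensin libraries, at 8.52 RPKM in GFP and between 5.36 and 7.04 there, while Col3a1 and Postn were below GFP in SMC2 #2. A sum highest in SMC1 and lowest in GFP was not particular to fibroblast markers. Summed RPKM of 6 primitive endoderm markers was also highest in SMC1 (11.3) and lowest in GFP (6.06), with 5 of the 6 higher in SMC1. CAPH2 #1 did not stand apart in that sum, at 8.25 against 8.26 in CAPH2 #2. The trophectoderm sum was highest in CAPH2 #2 (10.6) and the neural sum in SMC2 #1 (103), with CAPH2 #1 lowest in the neural sum (84.2). Feeder fibroblasts can make LIF, although the study's methods plate the cells briefly to take the feeders out before infection, and the part of these cells in the Lif values was not tested. In bulk RNA, fewer cells of a type and less RNA per cell cannot be told apart.

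**Figure D1:**
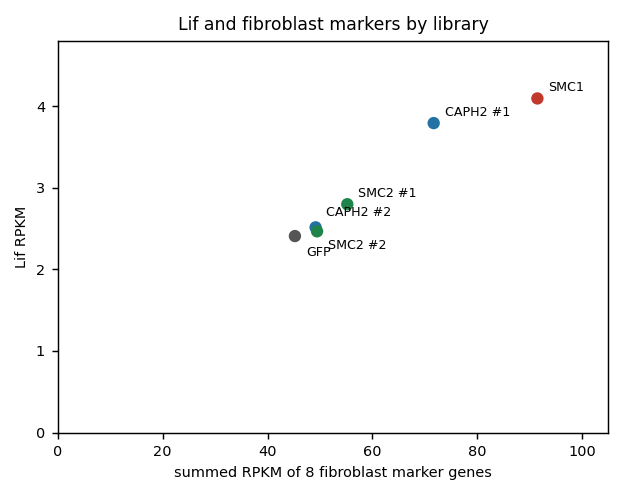
Lif RPKM against the summed RPKM of 8 fibroblast marker genes, 1 point per library, both axes linear. SMC1 (91.5, 4.09) and CAPH2 #1 (71.7, 3.79) are highest on both axes and GFP (45.2, 2.41) is lowest on both.

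The receptor chains were lower in the SMC1 library. Lifr (NM_013584, chr15:7090542-7147489, plus strand), which binds LIF, had an RPKM of 9.69 in GFP, 5.74 in SMC1, 9.23 and 9.40 in CAPH2, and 11.2 and 11.6 in SMC2. SMC1 lay below every other library, and CAPH2 and SMC2 did not overlap. Lifr in SMC1 was 59.3% of GFP (interval 55.0 to 63.9), and against the condensin libraries it fell by 0.88 on the log2 scale (SE 0.086, edgeR adjusted p = 5.1e-05). Il6st (NM_010560, chr13:113254278-113297068, plus strand), the signalling chain gp130, had an RPKM of 24.3 in GFP, 17.5 in SMC1, 24.6 and 26.4 in CAPH2, and 24.0 and 26.4 in SMC2. The SMC1 value was again the lowest, and the condensin libraries lay on either side of GFP. It was 71.8% of GFP (interval 67.6 to 76.1) and fell by 0.57 against the condensin libraries (SE 0.091, edgeR adjusted p = 0.000891). With ERCC scaling the log2 differences of SMC1 from GFP turned positive, 0.11 for Lifr and 0.39 for Il6st.

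Lifr had a second RefSeq row, NM_001113386, with an earlier start and end than NM_013584 on chromosome 15. Its RPKM was 6.50 in GFP, 5.05 in SMC1, 7.05 and 7.73 in CAPH2, and 8.74 and 9.68 in SMC2. The order of the groups was the same except that both CAPH2 libraries lay above GFP, and the log2 difference of SMC1 from GFP was -0.37, against -0.75 for the row with more counts. Reads on shared exons count for both rows.

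Jak1 (NM_146145, chr4:100824579-100937887, minus strand) moved the other way. This kinase, which phosphorylates gp130 and STAT3, had an RPKM of 16.4 in GFP, 23.1 in SMC1, 15.2 and 16.5 in CAPH2, and 15.3 and 16.8 in SMC2. SMC1 was the highest, and GFP lay within the range of the condensin libraries. The SMC1 level was 140.7% of GFP (interval 132.3 to 149.6) and rose by 0.50 on the log2 scale against the condensin libraries (SE 0.088, edgeR adjusted p = 0.00153). Stat3 (NM_213659, chr11:100748124-100800825, minus strand), the transcription factor of the pathway, had an RPKM of 34.9 in GFP, 32.7 in SMC1, 34.4 and 33.1 in CAPH2, and 32.8 and 33.7 in SMC2. Every library lay between 32.7 and 34.9. SMC1 differed from the condensin libraries by -0.066 (SE 0.074, edgeR adjusted p = 0.499), and the condensin libraries differed from GFP by -0.053 (adjusted p = 0.666).

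**Figure D2:**
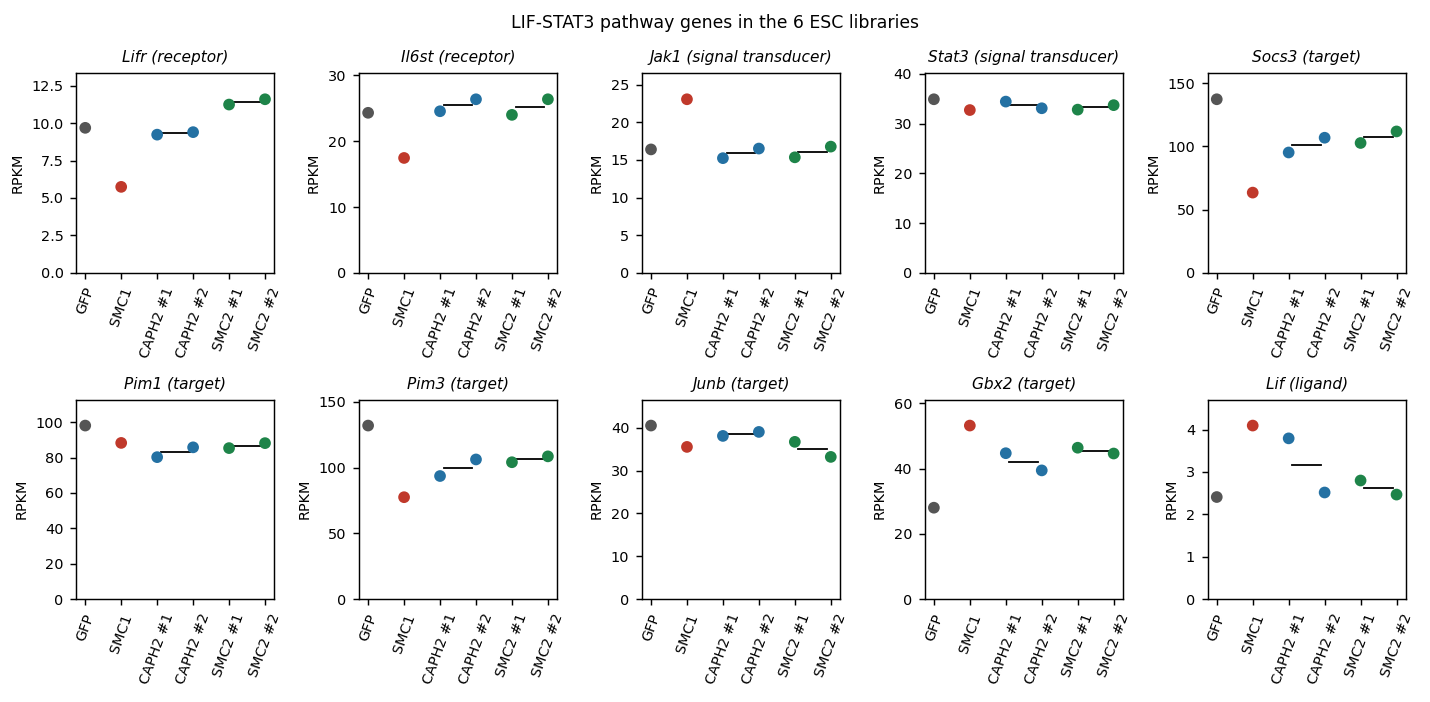
RPKM of the 10 members, 1 panel per gene on a linear axis from 0, with 1 point per library and a bar at the mean of the CAPH2 and of the SMC2 libraries. In the SMC1 library Socs3 (63.4), Pim3 (77.4), Lifr (5.74) and Il6st (17.5) lie below all 5 other libraries and Gbx2 (53.2), Jak1 (23.1) and Lif (4.09) lie above them.

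Socs3 (NM_007707, chr11:117827403-117830680, minus strand), the feedback inhibitor of the pathway, had the largest log2 difference between SMC1 and GFP among the members. The RPKM was 137 in GFP, 63.4 in SMC1, 95.2 and 107 in CAPH2, and 103 and 112 in SMC2. GFP was the highest, SMC1 the lowest, and the 4 condensin libraries lay between them without overlap. Socs3 in SMC1 was 46.2% of GFP (interval 44.4 to 48.1), a log2 difference of -1.11 that was -0.25 with ERCC scaling, and it fell by 0.75 against the condensin libraries (SE 0.095, edgeR adjusted p = 0.000227). The condensin libraries in turn fell by 0.39 against GFP (SE 0.087, edgeR adjusted p = 0.0234), although with ERCC scaling that difference was 0.058 and did not pass. Its promoter is the member sequence above that held TTCNNNGAA.

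Pim3 (NM_145478, chr15:88692624-88696156, plus strand) and Pim1 (NM_008842, chr17:29627990-29632404, plus strand) encode related serine/threonine kinases that promote survival and growth. Pim3 had an RPKM of 132 in GFP, 77.4 in SMC1, 93.5 and 106 in CAPH2, and 104 and 108 in SMC2, the same order of groups as Socs3. Its SMC1 level was 58.7% of GFP (interval 56.4 to 61.1), and it fell by 0.44 against the condensin libraries (SE 0.091, edgeR adjusted p = 0.00352). The condensin libraries fell by 0.35 against GFP (SE 0.085, edgeR adjusted p = 0.0306). With ERCC scaling the log2 differences from GFP were 0.10 for SMC1 and 0.10 for the condensin libraries. Pim1 had an RPKM of 98.1 in GFP, 88.3 in SMC1, 80.2 and 85.8 in CAPH2, and 85.3 and 88.1 in SMC2. GFP was the highest and SMC1 lay just above the condensin libraries, from which it differed by 0.025 (SE 0.079, edgeR adjusted p = 0.821). The condensin libraries differed from GFP by -0.20 (SE 0.078, edgeR adjusted p = 0.114).

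Junb (NM_008416, chr8:87500811-87502617, minus strand), a subunit of the AP-1 transcription factor, had an RPKM of 40.5 in GFP, 35.5 in SMC1, 38.1 and 39.0 in CAPH2, and 36.7 and 33.2 in SMC2. GFP was the highest, and SMC1 lay within the range of the condensin libraries. SMC1 differed from these by -0.080 (SE 0.093, edgeR adjusted p = 0.516). Gbx2 (NM_010262, chr1:91824537-91827751, minus strand), a homeobox transcription factor, was the STAT3-responsive member that was higher in the knockdowns. Its RPKM was 28.0 in GFP, 53.2 in SMC1, 44.7 and 39.5 in CAPH2, and 46.4 and 44.6 in SMC2. All 5 knockdown libraries lay above GFP and SMC1 was the highest. Gbx2 in SMC1 was 189.9% of GFP (interval 177.2 to 203.6), and the condensin libraries rose by 0.65 against GFP (SE 0.094, edgeR adjusted p = 0.00991). SMC1 rose by a further 0.25 against the condensin libraries (SE 0.087, edgeR adjusted p = 0.0424), a call that was lost without either SMC2 library (adjusted p of 0.0510 without SMC2 #1 and 0.0938 without SMC2 #2). The library kit does not mark strand, and exons of the antisense gene D130058E05Rik overlap those of Gbx2 by 1152 bases, so their reads cannot be told apart. Pim1 shares 261 bases with the antisense gene Gm16912, and Jak1 shares 4 bases with Raver2.

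**Figure D3:**
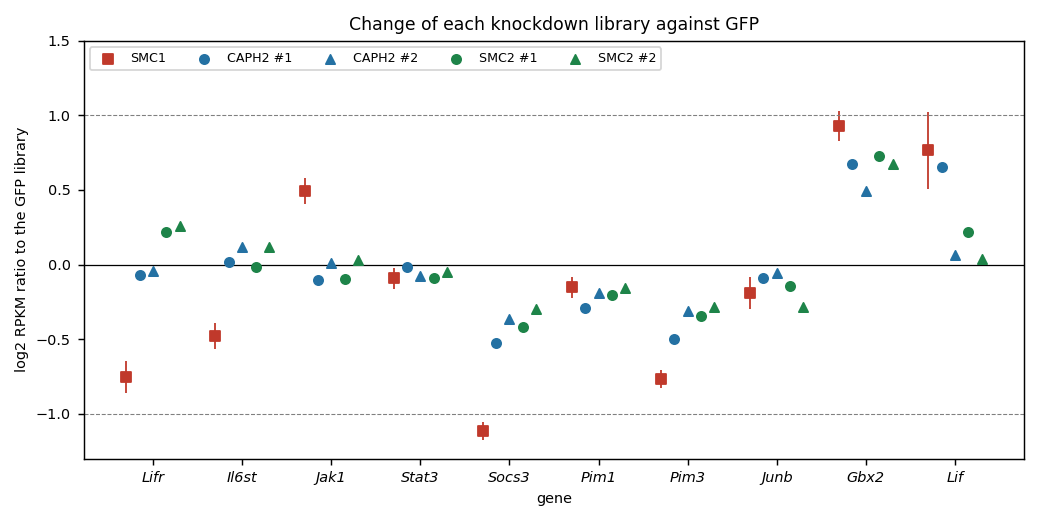
Log2 ratio of RPKM to the GFP library for each member in SMC1, both CAPH2 and both SMC2 libraries, without a pseudocount, where the bar on SMC1 is its 95% exact binomial interval and dashed lines mark a log2 change of 1. Socs3 (-1.11 in SMC1), Pim3, Pim1, Junb and Stat3 lie below 0 in all 5 knockdown libraries, and Gbx2 (0.93 in SMC1) and Lif lie above 0 in all 5. With ERCC scaling Pim3 in SMC1 is 0.10, Lifr 0.11 and Il6st 0.39.

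Counted together against the condensin libraries, 2 members rose in SMC1 (Jak1 and Gbx2) and 4 fell (Lifr, Il6st, Socs3 and Pim3). Over all genes tested 43.9% passed this test, 22.2% up and 21.7% down, so 6 of 10 is not far from the background. The single SMC1 library was assumed to vary like the hairpin libraries of one target, with 2 residual degrees of freedom. The 2 libraries of a condensin target are different hairpins, and the labels list no replicate culture of any hairpin. The p-values therefore measure the spread between hairpins of a target, not between cultures of 1 hairpin. With ERCC scaling no member passed this test, and the log2 differences kept their sign for these 6, at -0.45 for Lifr, -0.13 for Il6st, -0.31 for Socs3, -0.0032 for Pim3, 0.94 for Jak1 and 0.67 for Gbx2. The median log2 difference of the members was -0.073, beside -0.025 over all genes tested.

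Against GFP, 1 member rose in the condensin libraries (Gbx2) and 2 fell (Socs3 and Pim3), where 11.8% of all genes passed, 6.41% up and 5.37% down. The members' median was -0.043, beside 0.0029 over all genes. This test rests on the single GFP library, which every comparison with GFP shares. Socs3 did not pass without SMC2 #2 (adjusted p = 0.0607), and Pim3 did not pass without SMC2 #1 (0.0528) or SMC2 #2 (0.0802). With ERCC scaling no member passed. For SMC1 against GFP, which has no replicate and no test, Socs3 was the 1 member of 10 with a log2 change of at least 1, where 14.9% of the 12190 expressed genes reached it, 6.49% up and 8.46% down. With ERCC scaling Socs3 no longer reached it, at -0.25, and Gbx2 (1.79), Lif (1.63) and Jak1 (1.36) did. No member reached it in the mean of the CAPH2 libraries, where 1.05% of genes did (0.427% up and 0.623% down), or of the SMC2 libraries, where 0.73% did (0.221% up and 0.509% down). GFP lay outside the range of the 5 knockdown libraries for 7 of the 10 members, below them for 2 (background 26.4%) and above them for 5 (background 32.5%), where 58.9% of expressed genes lay outside. SMC1 lay outside the range of the rest for 8 members, below for 5 (background 38.1%) and above for 3 (background 33.7%).

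The members were also compared between the condensin targets. Between SMC2 and CAPH2, the comparison with 2 libraries in each group, no member passed the edgeR test (adjusted p = 0.9998 for each), and of all genes only Smc2, the targeted gene itself, did (0.00684%), while 451 had an unadjusted p under 0.05. DESeq2 called 6 genes, none of them a member. Lifr came closest, with a mean RPKM of 9.32 ± 0.119 (SD, n = 2) for CAPH2 and 11.4 ± 0.250 (SD, n = 2) for SMC2, a log2 difference of 0.31 (SE 0.071, edgeR adjusted p = 0.9998). Lifr and Junb were the 2 members whose CAPH2 and SMC2 libraries did not overlap, where 30.2% of expressed genes did not. Socs3 was 101 ± 8.26 and 107 ± 6.46 RPKM (SD, n = 2 each), a difference smaller than the spread between hairpins.

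**Figure D4:**
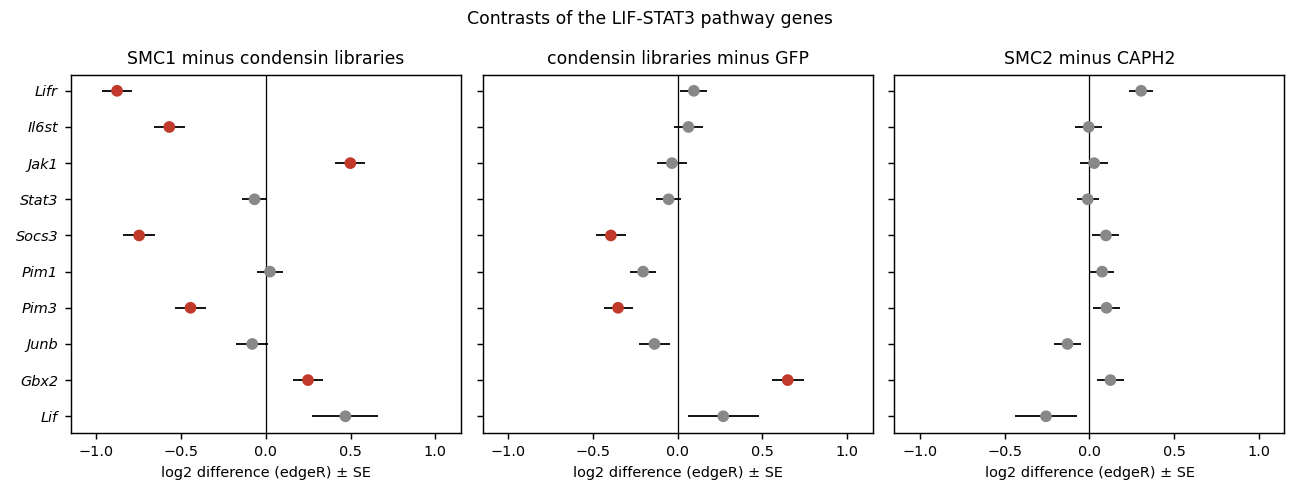
Log2 differences of the members in the edgeR fit with bars of 1 SE and red points for an adjusted p under 0.05, for SMC1 against the 4 condensin libraries, the condensin libraries against GFP, and SMC2 against CAPH2. Lifr (-0.88), Socs3 (-0.75), Il6st (-0.57) and Pim3 (-0.44) fall and Jak1 (0.50) and Gbx2 (0.25) rise in the first, and with ERCC scaling no member passes any of the 3 tests.

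The levels of the members kept a similar order in most libraries. In GFP, Socs3 and Pim3 led at 137 and 132 RPKM, followed by Pim1 at 98.1, Junb at 40.5, Stat3 at 34.9, Gbx2 at 28.0, Il6st at 24.3, Jak1 at 16.4, Lifr at 9.69 and Lif at 2.41. In SMC1, Pim1 (88.3) and Pim3 (77.4) stood above Socs3 (63.4), Gbx2 (53.2) stood above Junb (35.5) and Stat3 (32.7), and Jak1 (23.1) stood above Il6st (17.5). Among the 9 pairs of neighbours in the order of mean RPKM, the libraries of Socs3 and Pim3 overlapped in both condensin groups, at 101 ± 8.26 and 99.8 ± 8.91 RPKM for CAPH2 and 107 ± 6.46 and 106 ± 3.16 for SMC2 (SD, n = 2 each). Those of Junb and Stat3 overlapped in SMC2, at 34.9 ± 2.49 and 33.2 ± 0.636 (SD, n = 2 each). Gbx2 and Junb in CAPH2, at 42.1 ± 3.73 and 38.5 ± 0.660 (SD, n = 2 each), did not overlap but lay closer than the SD of Gbx2.

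The genes whose pattern over the 6 libraries lay closest to that of Socs3, by Euclidean distance between centred log2 RPKM values among 12259 genes, were Phf19 (0.065), Zfp710 (0.071), Acacb (0.079), P4htm (0.082) and Sema5b (0.087). Zfp710, for example, had an RPKM of 47.4 in GFP, 21.0 in SMC1 and between 32.3 and 37.8 in the condensin libraries. All 5 shared the order of groups seen for Socs3, with GFP highest and SMC1 lowest. That order follows from how these genes were chosen and is not a separate result.

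A wider list of 35 other genes of the pathway gave 33 that could be tested, of which 7 rose and 14 fell in SMC1 against the condensin libraries. The list's median log2 difference was -0.14, beside -0.025 over all genes. Over all genes tested 22.2% rose and 21.7% fell. With ERCC scaling 4 of the list rose and 3 fell: Cntfr, Osmr, Jak2 and Socs1, and Osm, Klf4 and Tfcp2l1. The other 14 calls were lost, among them Klf5 (adjusted p = 0.308), Jak3 (0.222) and Socs2 (0.646), and Grb2 (0.20) and Ptpn2 (0.058) turned above 0. Beside these values, all 7 pluripotency markers were lower in SMC1 than in GFP by RPKM, from -0.079 (Tdgf1) to -1.99 (Zfp42) on the log2 scale. ERCC scaling, which raised the median of all genes by 0.86 in that comparison, was not applied to them. Their part in the result was not tested.

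Of the 8 other STAT3 targets tested, 4 fell in SMC1 and none rose, beside 21.7% and 22.2% of all genes. Klf4, a pluripotency transcription factor, had an RPKM of 78.5 in GFP, 9.23 in SMC1 and between 53.1 and 66.9 in the condensin libraries, and fell by 2.79 (SE 0.15, edgeR adjusted p = 2.12e-06). Tfcp2l1, which sustains ESC self-renewal downstream of LIF, had 44.9 in GFP, 5.32 in SMC1 and between 40.1 and 49.6 in the condensin libraries, and fell by 3.12 (SE 0.14, edgeR adjusted p = 9.12e-07). The related factor Klf5 fell by 1.45 (edgeR adjusted p = 1.45e-05) and Bcl3 by 0.99 (adjusted p = 0.000133). With ERCC scaling Klf4 and Tfcp2l1 in the SMC1 library were at -2.22 and -2.21 against GFP on the log2 scale. Myc, a growth-promoting transcription factor, did not pass between SMC1 and the condensin libraries (log2 difference 0.060, edgeR adjusted p = 0.775), but the condensin libraries rose by 0.89 against GFP (SE 0.17, adjusted p = 0.0152), from 10.2 RPKM to between 16.6 and 22.4. Ier3, an immediate early gene, had 37.6 in GFP, 19.2 in SMC1 and between 14.5 and 26.3 in the condensin libraries, which fell by 0.94 against GFP (edgeR adjusted p = 0.0383).

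Of the 7 other inhibitors, 1 rose and 4 fell in SMC1 against the condensin libraries, beside 22.2% and 21.7% of all genes. Socs1, a relative of Socs3, rose by 1.11 (edgeR adjusted p = 0.000233), from between 5.42 and 6.23 RPKM to 12.9. Socs2 fell by 1.00 (edgeR adjusted p = 9.23e-05), Pias3, which binds STAT3, by 0.53 (adjusted p = 0.00245), Cish by 0.48 (adjusted p = 0.0398) and the phosphatase Ptpn2 by 0.37 (adjusted p = 0.0102). The Cish call was lost without SMC2 #1 (edgeR adjusted p = 0.103) or SMC2 #2 (0.0914). Socs1 and Socs3 changed in opposite directions in the same library.

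Of the 10 other kinases, STATs and adaptors, 3 rose and 5 fell, beside the same 22.2% and 21.7%. Jak2 rose by 1.00 (edgeR adjusted p = 0.000459), to 4.64 RPKM from between 1.85 and 2.51. Stat5b rose by 0.56 (edgeR adjusted p = 0.00389) and the phosphatase Ptpn11, which links gp130 to the MAPK pathway, by 0.39 (adjusted p = 0.00438). The kinases Jak3 and Tyk2 fell by 1.57 and 0.64 (edgeR adjusted p of 4.11e-06 and 0.000733). Stat2 fell by 0.65, Gab1 by 0.46 and Grb2 by 0.23 (edgeR adjusted p of 0.00159, 0.000701 and 0.0415). The Grb2 call was lost with DESeq2 size factors (adjusted p = 0.0581) and without CAPH2 #2 (0.0691), SMC2 #1 (0.0908) or SMC2 #2 (0.0744). JAK family members went in both directions, with Jak1 and Jak2 up and Jak3 and Tyk2 down.

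Of the 8 other ligands and receptors tested, 3 rose and 1 fell, beside 22.2% and 21.7%, and 3 of these 4 had few counts. Cntfr, the binding chain of the receptor for ciliary neurotrophic factor, which also signals through LIFR and gp130, rose by 1.80 (edgeR adjusted p = 2.75e-06). Its RPKM was 12.9 in GFP, 58.6 in SMC1 and between 14.2 and 20.1 in the condensin libraries. The 3 with few counts, Osmr, Il11 and Osm, are named after their values were seen. Osmr and Il11 rose by 1.14 and 1.18 (edgeR adjusted p of 0.0155 and 0.0348), and Osm, a related cytokine, fell by 3.23 (adjusted p = 0.000838) with 4 counts in SMC1 and 51 in GFP. The Il11 call was lost without SMC2 #2 (edgeR adjusted p = 0.0887). In the condensin libraries against GFP, 2 genes of the whole list rose (Myc and Ptpn11) and 3 fell (Stat2, Pias3 and Ier3), where 6.41% and 5.37% of all genes did, and between SMC2 and CAPH2 none passed. Without SMC2 #2 only Myc of these 5 passed against GFP, with adjusted p of 0.0683 for Stat2, 0.112 for Ptpn11, 0.0507 for Pias3 and 0.0502 for Ier3, and without SMC2 #1 Ptpn11 did not (0.0558). With ERCC scaling no gene passed the comparison of the condensin libraries with GFP, and Pias3 was at 0.0065.

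**Figure D5:**
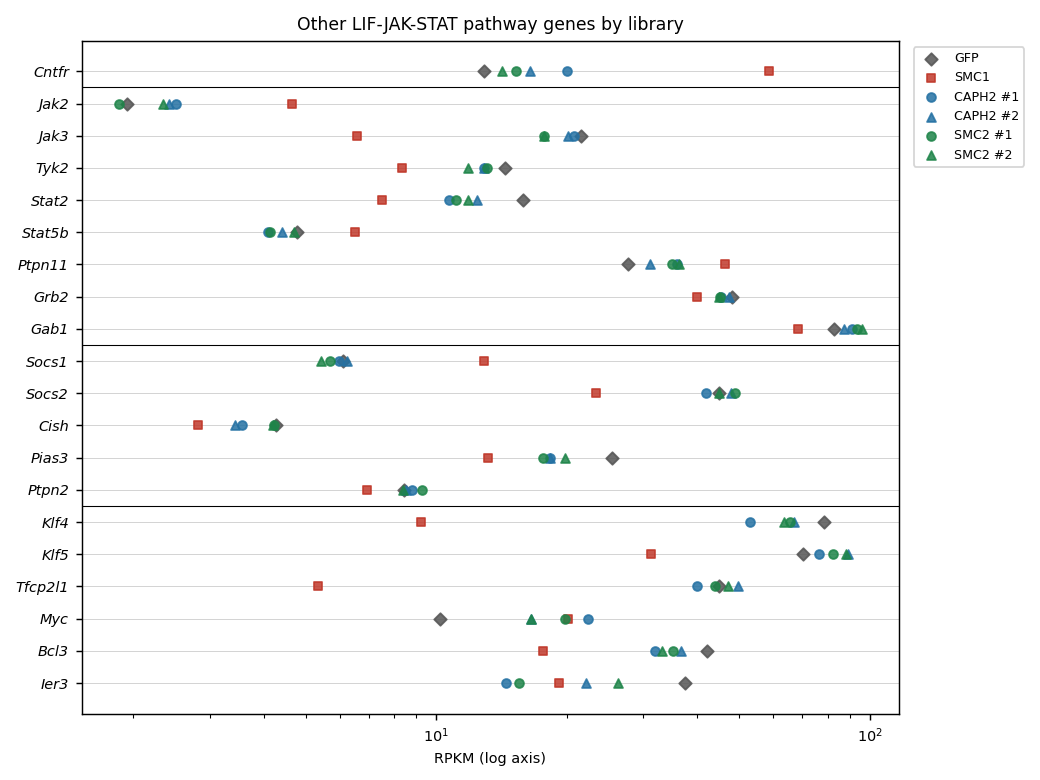
RPKM of 20 other pathway genes in each of the 6 libraries on a log axis, 1 symbol per library, with lines between receptors, signal transducers, inhibitors and targets. They are the named genes that averaged 50 counts or more, so Osmr, Il11 and Osm are not shown. Klf4 (9.23) and Tfcp2l1 (5.32) lie far below the other libraries in SMC1, and Cntfr (58.6), Jak2 (4.64) and Socs1 (12.9) lie above them, as they do with ERCC scaling against GFP (-2.22, -2.21, 3.05, 2.13 and 1.94 on the log2 scale).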

How the data were processed

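RNA-seq libraries were made with a TruSeq v2 kit from RNA of 652000 cells each, with 1.42 µl of diluted ERCC spike-in RNA. The submitters' notes name Bowtie and build mm9, and the study's methods give its settings as -n 2, -e 70, -m 2 and -k 1, under which genes with near-identical copies lose reads. With RPKM_count 2.3.5 the authors deposited raw exonic counts per RefSeq row, in which shared exons count for every isoform. The deposited RPKM values divide those counts by exon length and by the reads of the library, not by the spike-ins.

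Of 26165 rows, 92 were ERCC. Accessions named 25349 of the rest, overlap with GENCODE genes named 677, and 47 had no name. The row with the most counts stood for each gene. The members and lists were chosen with earlier results of these data known.

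Log2 ratios to GFP use RPKM without a pseudocount, for genes that reached an RPKM of 1 in GFP. Counts were tested in 1 edgeR 4.0.16 quasi-likelihood fit of all 6 libraries (R 4.3.3, TMM, a mean per group, at least 10 counts in at least 2 libraries, Benjamini-Hochberg adjustment, threshold 0.05). Named genes are the members, the targeted genes, the 5 genes closest to Socs3, and list genes averaging 50 counts or more that passed a test or reached a log2 change of 1 in SMC1. Osmr, Il11 and Osm, which average fewer counts, are named as well.

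The fit was tested on simulated counts with 200 changed genes. At 1.5-fold it recovered 143 for SMC1 against condensin libraries, 143 for condensin libraries against GFP and 153 for SMC2 against CAPH2. False calls were 9 of 152, 7 of 150 and 12 of 165. At 2-fold it recovered 191, 191 and 192, and 11 of 202, 16 of 207 and 13 of 205 calls were false. The simulation changed far fewer genes than the 6415 that passed for SMC1 against condensin libraries, so these figures may not hold there. It also drew every library, GFP and SMC1 included, with the same spread at a given expression level. It therefore cannot test whether the single GFP and SMC1 libraries vary like the hairpin libraries. Alternatives were DESeq2 1.42.0, ERCC scaling, other filters, all rows, a replicate block and leaving out each condensin library.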

Additional observations from a re-analysis of the deposited data

How the results depend on the processing

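With ERCC counts as the library scale, the median log2 change of all genes rose by 0.43 for SMC1 against condensin libraries, 0.46 for condensin libraries against GFP and 0.26 for SMC2 against CAPH2. The genes that passed were then 1408, 0 and 4, in place of 6415, 1722 and 1, and of these 1408 genes 1261 rose and 147 fell, in place of 3239 and 3176. No member passed, and 4943, 314 and 844 genes, with 3, 0 and 1 members (Gbx2, Lif and Jak1 in SMC1), reached a log2 change of 1 against GFP in SMC1, CAPH2 and SMC2, in place of 1822, 128 and 89. Directions turned in the first comparison for Stat3 (0.36), Junb (0.35), Grb2 (0.20), Ptpn2 (0.058) and Ier3 (0.41), in the second for Jak1 (0.42), Stat3 (0.41), Socs3 (0.058), Pim1 (0.25), Pim3 (0.10), Junb (0.32) and Pias3 (0.0065), and in the third for Il6st (0.27), Stat3 (0.24) and Junb (0.14). The cause was not tested.

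DESeq2 called 4266, 1084 and 6 genes in the 3 comparisons, and in SMC1 against the condensin libraries Gbx2 (adjusted p = 0.0725), Grb2 (0.143), Cish (0.263), Osmr (0.207) and Il11 (0.358), and in the condensin libraries against GFP Ier3 (0.266), were not among them. Without a filter on low counts Lif passed between SMC1 and the condensin libraries (adjusted p = 0.0384) and 5 genes passed between SMC2 and CAPH2, and 3 rows did when all RefSeq rows were tested. With log2(RPKM + 1), 1209, 34 and 18 genes reached 1 in SMC1, CAPH2 and SMC2, and without a minimum RPKM 4436, 1390 and 1232 did.

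Same-numbered CAPH2 and SMC2 libraries are different hairpins and share only a number, with a correlation of their deviations of 0.0961. With a replicate block 7404, 3479 and 32 genes passed, none of the 32 a member. Pim1 then passed against GFP (adjusted p = 0.0491) and Lif passed between SMC1 and the condensin libraries (adjusted p = 0.00642), and no other member's call changed.

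Leaving out each condensin library in turn gave 5413 to 7246 genes in the first comparison, 204 (without SMC2 #2) to 3997 (without CAPH2 #2) in the second, with 1 to 5 members (Pim1, adjusted p = 0.0352, and Lif, 0.0455, joined without CAPH2 #2), and 1 to 335 (without CAPH2 #2) in the third, with 0 to 1 members. The 1 member was Lif (log2 difference -0.51). Each of these fits left 1 library for a target, so the spread between its hairpins dropped out of the error. Calls gained in them, those of Pim1 and Lif among them, are therefore not firmer than the fit of all 6 libraries. The counts past 1 against GFP were 86 to 308 for CAPH2 and 113 to 159 for SMC2. The values that changed sign had passed no test in the fit of all 6 libraries. They were Myc (-0.023 to 0.19) and Ier3 (-0.21 to 0.16) in the first comparison and Jak1 (-0.065 to 0.0055) in the second. In the third they were Il6st (-0.072 to 0.063), Jak1 (-0.037 to 0.091), Stat3 (-0.039 to 0.011) and Lif (-0.51 to 0.072). The tests rest on 2 residual degrees of freedom and on single GFP and SMC1 libraries, and Lif, at 190 to 355 counts a library, is the least precise member.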
